A study of Mus musculus with 52 samples.

Results

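Kit, Tfrc and Cd24a encode the 3 surface proteins whose antibodies were used to sort the founder cells of this study. The founders were cells sorted as mouse burst-forming unit-erythroid cells (BFU-E), the name for early progenitors committed to the red cell lineage. The data are RNA profiles of the founders' daughters after 1 division. The 3 genes were taken by symbol from the deposited count tables, where each symbol occurred once among 49466 genes. Their levels per cell, the agreement of the 2 daughters of a founder, the effect of dexamethasone and the levels in cells with granulocyte markers are described here.

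The dexamethasone group held 13 daughter pairs from founders kept for 16 hours with 100 nM dexamethasone, a synthetic glucocorticoid, and the untreated group held 13 pairs from founders kept without it. All founders came from fetal liver of C57/Bl6J mice at embryonic day 14.5. Each of the 52 libraries is 1 daughter cell, and each founder sat alone in its well. The labels name no embryo or litter, so p-values for dexamethasone measure the spread between founders and wells, which may share an animal. The test between founders sets their differences against those between the 2 daughters of a founder. The protocol in the labels describes depletion of cells carrying CD3e, CD45R, Ly-6G, CD11b, Ter119, Ly-6A/E, CD16/32 or CD41 before the sort. It names PE as the dye on both the CD71 and the CD24 antibody and another dye on the CD117 antibody. The 2 proteins thus shared 1 channel. The direction of the gate was not stated in the sources used here.

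Kit encodes CD117, the receptor tyrosine kinase for stem cell factor, which blood progenitors need to survive and divide and which erythroid cells lose as they mature. Tfrc encodes CD71, the transferrin receptor, which carries iron-loaded transferrin into the cell and is very abundant in cells that make hemoglobin. Cd24a encodes CD24, a small glycoprotein held in the membrane by a glycosylphosphatidylinositol (GPI) anchor and found on many blood cells, erythroid precursors among them. The Tfrc message itself is a textbook case of control by iron: hairpins in its 3′ untranslated region, called iron-responsive elements, bind the iron regulatory proteins Aco1 and Ireb2 when iron is scarce, which keeps the message from being degraded.

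On GRCm38 with the GENCODE M21 annotation, Kit (ENSMUSG00000005672) lies on chromosome 5 from 75574916 to 75656722. Tfrc (ENSMUSG00000022797) lies on chromosome 16 from 32608920 to 32632794. Cd24a (ENSMUSG00000047139) lies on chromosome 10 from 43578284 to 43584265. All 3 are protein-coding genes on the plus strand, and the deposited counts are given per gene.

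The iron-responsive hairpins are shown because they are the known elements through which iron controls the Tfrc message. The stability of the message was not measured here. A search for an unpaired C, a stem of 5 base pairs and the loop CAGTGN, read on the sense strand in a window of 17 bases, found 4 matches in the Tfrc transcript of 4890 bases. All 4 lie in its 3′ untranslated region of 2458 bases, at positions 889, 1268, 1333 and 1380 of that region. Capitals mark the loop.
Tfrc hairpin 1: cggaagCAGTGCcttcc
Tfrc hairpin 2: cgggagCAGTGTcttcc
Tfrc hairpin 3: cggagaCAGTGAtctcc
Tfrc hairpin 4: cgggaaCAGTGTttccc
The same search found at least 1 match in 294 of 21901 protein-coding genes (1.34%), and Tfrc was the 1 gene with 4. A match is a description of the letters and no measure of binding.

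Total counts per library ran from 0 to 5606500, with medians of 2577701 in dexamethasone and 2644093 in untreated libraries. The 4 libraries under 100000 counts were all untreated and belonged to pairs 4, 7 and 12. They are left out of the levels per library below. Their pairs are left out of the 23 pairs compared daughter by daughter and of the means of pathway genes. Tests and means given for all pairs keep these pairs, except where stated. The other 48 libraries, 26 dexamethasone and 22 untreated, held at least 210383 counts. In 10 of them, both daughters of dexamethasone pairs 6, 7 and 10 and of untreated pairs 9 and 10, the mean log2(CPM + 1) of 15 granulocyte and monocyte markers exceeded that of 33 erythroid markers. These cells are called myeloid-like; CPM is the count of a gene relative to the total of its library, in parts per 1000000. All 10 reached 10 CPM for at least 5 of the 15 granulocyte and monocyte markers, and each of the 38 others reached it for at least 9 of the 33 erythroid markers and for at most 4 of the granulocyte and monocyte ones. The summed level of those 15 markers ran from 7692 to 41905 CPM in myeloid-like cells and from 0.258 to 5699 CPM in the others. At least 3 megakaryocyte markers reached 10 CPM in 5 libraries, at least 3 stem cell markers in 1, and at least 3 mast cell, lymphoid, macrophage or hepatocyte markers in 0. The difference of the 2 means was at least 1.34 in myeloid-like cells and at most -0.65 in the others. The cell nearest to the boundary among the others, dexamethasone pair 12 cell 1, was also the shallowest of the 48 and held 5633 CPM of Mpo, which encodes a neutrophil granule enzyme, beside 7596 CPM of Klf1, an erythroid transcription factor.

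After 1 division each of the 3 messages was detected in most cells, though seldom at an even level. The RNA of the founders themselves is not in these data. Tfrc reached 10 CPM, the level called detected here, in 41 of 48 libraries, and Kit and Cd24a did so in 34 each. All 3 were detected in 25 libraries, 11 of 26 with dexamethasone and 14 of 22 without. All 25 were among the 38 other cells, and 0 of the 10 myeloid-like cells held all 3. After thinning every library to 200000 counts the detected numbers were 34 for Kit, 42 for Tfrc and 35 for Cd24a.

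Per kilobase of exon, the order of the levels was Cd24a, Tfrc, Kit, with medians over the 48 libraries of 109, 30.1 and 9.88 CPM per kb. The quartiles were 0.951 and 258 CPM per kb for Cd24a, 14.8 and 67.7 for Tfrc, and 0.583 and 22.9 for Kit, so the ranges of neighbours overlap. Within a library Cd24a lay above Tfrc in 35 of 48 and Tfrc above Kit in 37 of 48. In the 38 other cells the medians were 149 CPM per kb for Cd24a, 42.5 for Tfrc and 8.80 for Kit. In the 10 myeloid-like cells the order differed, at 0.593 CPM per kb for Cd24a, 7.14 for Tfrc and 15.9 for Kit. How evenly reads cover a message was not stated in the sources used here, and division by exon length assumes even coverage.

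Kit messages ran from 0 through a median of 138 to 589.6 CPM in the 26 dexamethasone libraries, and from 0 through 78.4 to 949.8 CPM in the 22 untreated libraries. Kit was at 10 CPM or more in 18 dexamethasone and 16 untreated libraries, and the ranges overlap almost completely. No library fell between 5.82 and 16.1 CPM, which are the highest Kit level below the 10 CPM line and the lowest above it. In 3 libraries no Kit read was counted. The upper limit that a count of 0 allows, 3 counts, was 0.951 CPM in dexamethasone pair 11 cell 2, 14.3 CPM in dexamethasone pair 12 cell 1 and 1.29 CPM in untreated pair 2 cell 2. These limits cover counting error only.

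Tfrc ran from 0.305 through a median of 137 to 877 CPM in dexamethasone libraries, and from 65.9 through 343 to 1298 CPM in untreated libraries. It was above the 10 CPM line in 19 of 26 dexamethasone libraries and in all 22 untreated libraries. The 7 below it are 5 of the 6 myeloid-like dexamethasone cells and 2 others, dexamethasone pair 8 cell 1 at 0.434 CPM and pair 12 cell 1 at 9.51 CPM.

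Cd24a ran from 0.434 through a median of 282 to 1064 CPM in dexamethasone libraries, and from 0.315 through 286 to 971 CPM in untreated libraries. It was detected in 18 dexamethasone and 16 untreated libraries. Of the 3 genes it showed the sharpest division by lineage class, described further on.

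**Figure D1:**
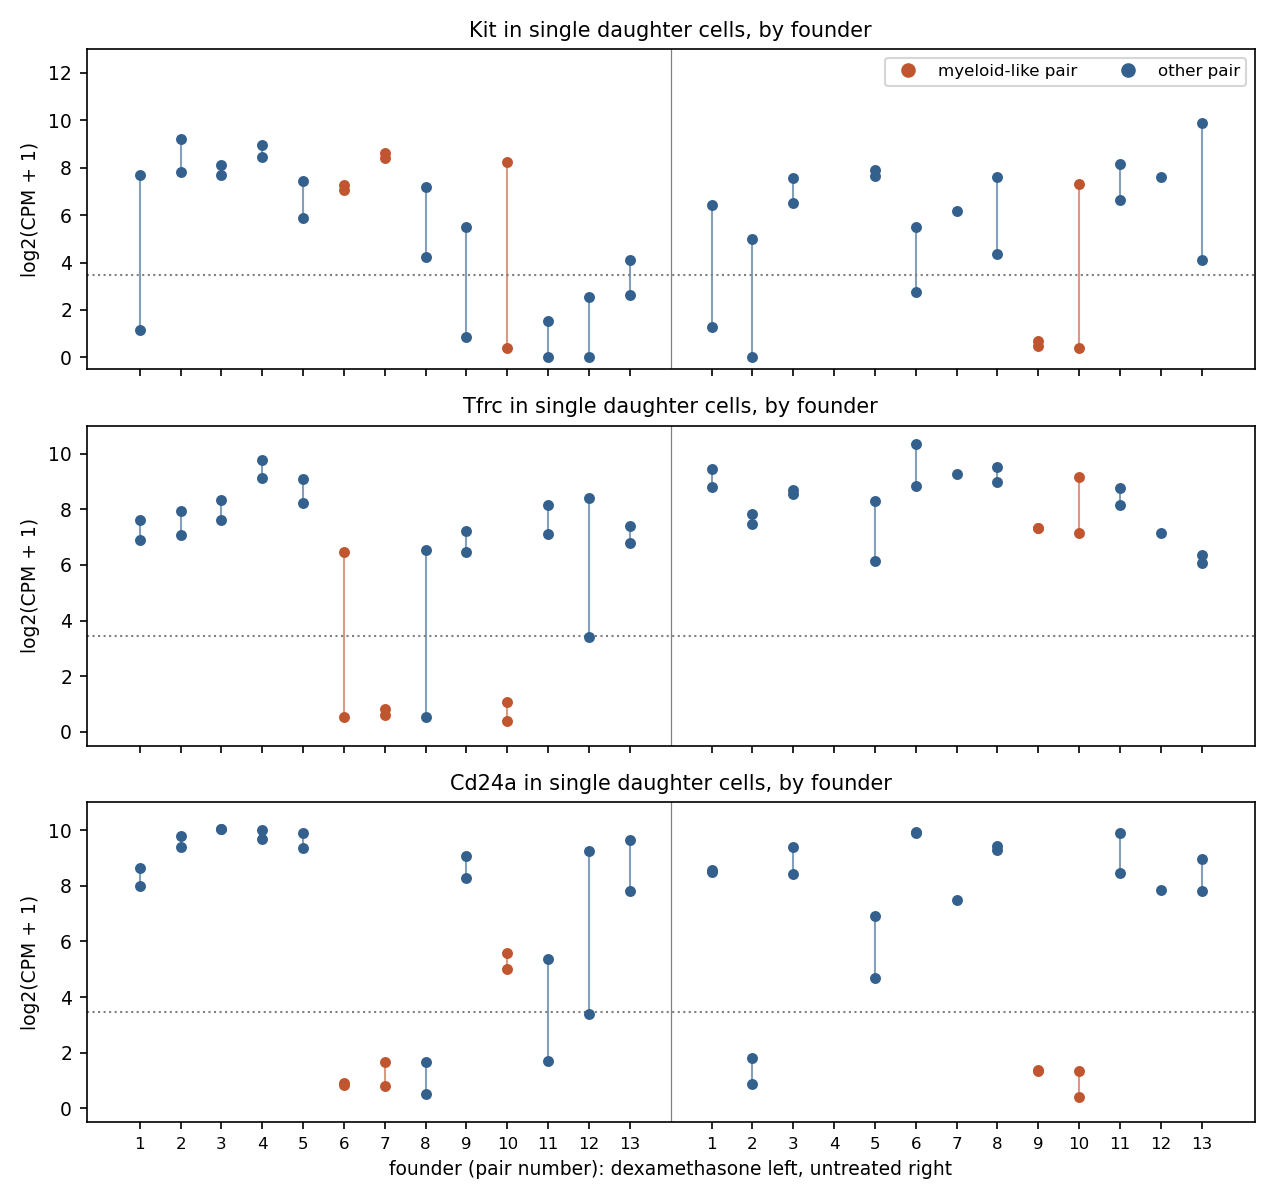
Levels of Kit, Tfrc and Cd24a as log2(CPM + 1) in the 48 deeper libraries, with dexamethasone founders on the left and untreated founders on the right; each dot is 1 daughter cell, a line joins the 2 daughters of a founder, orange marks myeloid-like pairs and the dotted line is 10 CPM. Lines are long for many Kit pairs and short for most Cd24a pairs, and all 22 untreated cells lie above the dotted line for Tfrc.

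The first comparison asked whether daughters of 1 founder carry more similar levels than cells of different founders. For Cd24a they did. On the log2(CPM + 1) scale the daughters of the 23 pairs differed by 1.07 ± 1.34 for Cd24a (SD), against a mean of 4.20 between cells of different founders within a treatment. edgeR's quasi-likelihood F test of 1 term per founder used the 25 pairs with 2 libraries above 0 counts. It gave Cd24a an F of 11.9 with a Benjamini-Hochberg adjusted p of 2.15e-06, the third smallest p of 8080 genes. The share of genes called there was 3.42% (276 of 8080 at an adjusted p under 0.05).

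Dexamethasone pair 3 shows how closely Cd24a could match, with 1064 CPM in cell 1 and 1044 CPM in cell 2. Untreated pair 6 held 945 and 971 CPM. At the other end, untreated pair 9 held 1.58 and 1.53 CPM, and dexamethasone pair 6 held 0.786 and 0.862 CPM. Both daughters had Cd24a in 15 of 23 pairs, neither had it in 6, and 1 alone had it in 2, dexamethasone pairs 11 and 12. In pair 12 the low daughter was the doubtful library already described.

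Tfrc came second. Its daughters differed by 1.41 ± 1.77 on the log2(CPM + 1) scale (SD, 23 pairs), against 2.69 between founders. For Tfrc edgeR gave an adjusted p of 0.0577 (F = 3.03), just short of the threshold, and 0.0724 on the 23 pairs alone. limma-trend on log2(CPM + 1) called it with an adjusted p of 0.00870, and so did edgeR with RLE scaling at 0.0485. Tfrc was in both daughters of 18 pairs, in neither of 2 and in 1 alone of 3, all 3 with dexamethasone. In dexamethasone pair 8 the 2 cells held 0.434 and 92.9 CPM, in pair 6 they held 87.2 and 0.431 CPM, and in pair 12 they held 9.51 and 338 CPM. The closest pair was untreated pair 9, at 159 and 160 CPM.

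Kit differed most between sisters. The difference was 2.77 ± 2.42 on the log2(CPM + 1) scale (SD, 23 pairs), against 3.64 between founders, and edgeR did not call it (F = 1.44, adjusted p = 0.376; limma-trend adjusted p = 0.183). Kit was in both daughters of 12 pairs, in neither of 3 and in 1 alone of 8, of which 4 had dexamethasone and 4 were untreated. Daughters differed by more than 2 log2 units in 11 of 23 pairs for Kit, in 5 for Tfrc and in 3 for Cd24a.

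The widest Kit gap was in dexamethasone pair 10, at 0.305 and 298 CPM. The cells of that pair also differed beyond Kit, with 7 and 16 erythroid markers at 10 CPM or more. Dexamethasone pair 1 held 204 and 1.21 CPM and dexamethasone pair 9 held 44.0 and 0.840 CPM. Among untreated founders, pair 10 held 159.5 and 0.315 CPM, pair 1 held 85.9 and 1.40 CPM, pair 2 held 30.9 and 0 CPM and pair 13 held 16.2 and 949.8 CPM. The libraries of these 7 pairs held between 1191155 and 5606500 counts, so a level near 1 CPM rests there on a few reads. The sister cells of dexamethasone pair 1 that parted in Kit were close in Tfrc (117 and 197 CPM) and in Cd24a (394 and 254 CPM). The same held for untreated pair 1, with 441 and 693 CPM of Tfrc and 357 and 376 CPM of Cd24a. It did not hold for every pair. Untreated pair 10 also parted in Tfrc, at 142 and 571 CPM. Dexamethasone pair 8 held 145 and 17.7 CPM of Kit and 0.434 and 92.9 CPM of Tfrc.

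**Figure D2:**
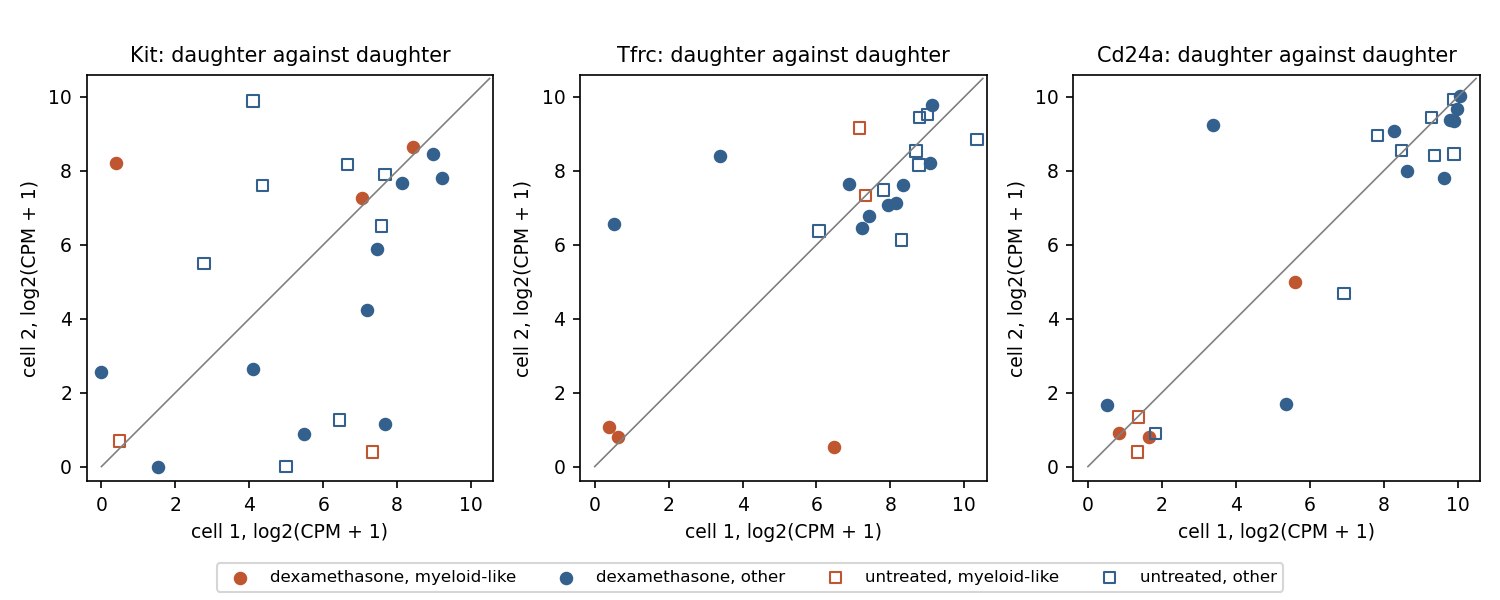
Level in cell 2 against level in cell 1, both as log2(CPM + 1), for the 23 pairs with 2 deeper libraries; filled circles are dexamethasone and open squares untreated pairs, orange are myeloid-like and blue other pairs, and the line marks equal levels. Cd24a pairs lie along the line at high and at low levels, while 8 Kit pairs have 1 daughter under and 1 above 10 CPM.

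The intraclass correlation, which is near 1 where founders differ and their daughters match and near 0 where daughters match no better than any 2 cells, puts these on 1 scale. Over the 23 pairs it was 0.893 for Cd24a, 0.599 for Tfrc and 0.324 for Kit, with a median of 0.134 over all 8080 genes. The percentile among those genes was 99.9 for Cd24a, 96.3 for Tfrc and 76.9 for Kit.

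**Figure D3:**
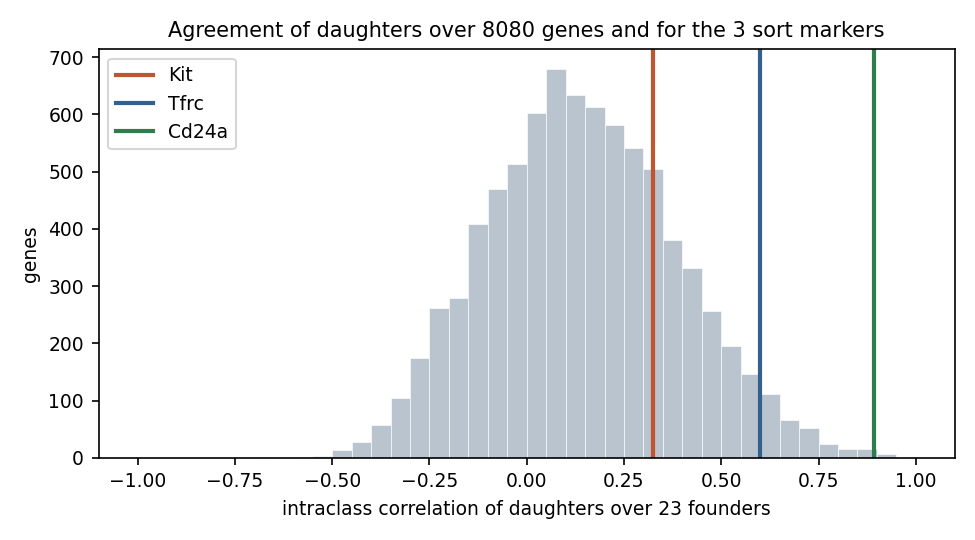
Number of genes by intraclass correlation of the 2 daughters over 23 founders, centred within treatment, for 8080 genes that reached 5 counts in 10 or more libraries; vertical lines mark the 3 sort markers. Cd24a at 0.893 lies at the far right, Tfrc at 0.599 in the upper tail and Kit at 0.324 on the right slope.

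No pair held 1 myeloid-like and 1 other daughter, so the values were also taken without myeloid-like pairs. In the 18 pairs without a myeloid-like daughter the intraclass correlation was 0.803 for Cd24a, 0.298 for Tfrc and 0.380 for Kit, and without dexamethasone pair 12 as well it was 0.902, 0.450 and 0.324. In edgeR on the 18 pairs Cd24a remained called (adjusted p = 0.00137), and Tfrc (0.439) and Kit (0.458) were not. When founders were compared within a library plate column only, edgeR gave Cd24a the smallest p of all genes (adjusted p = 1.66e-06), with 0.0804 for Tfrc and 0.492 for Kit. The plate column is read from the number in the name of each library, which does not itself mention a plate.

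No effect of dexamethasone on how far daughters parted was detectable. The difference between daughters averaged 2.45 ± 2.46 log2 units with dexamethasone and 3.19 ± 2.43 in untreated pairs for Kit (SD, n = 13 and 10 pairs, permutation p = 0.474). It averaged 1.86 ± 2.19 with dexamethasone and 0.83 ± 0.78 in untreated pairs for Tfrc (SD, permutation p = 0.187), and 1.29 ± 1.67 with dexamethasone and 0.79 ± 0.73 in untreated pairs for Cd24a (SD, permutation p = 0.444). The two-sided permutation test called 0 of 8080 genes (0%; 354 had an unadjusted p under 0.05), and the adjusted p was 1.00 for each of the 3.

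The second comparison set dexamethasone against untreated pairs. On counts summed over a pair, edgeR's quasi-likelihood test gave log2 fold changes of 0.36 ± 0.72 for Kit, -0.77 ± 0.62 for Tfrc and 0.38 ± 0.88 for Cd24a (SE), each with an adjusted p of 1.00. None of the 3 was called, and neither was any other gene (0 of 6429, 0%). Of all genes 102 had an unadjusted p under 0.05, DESeq2 called 2 and limma-trend called 0; the median log2 fold change of all genes was 0.06. edgeR without a filter on low counts called 2180 of 18871 genes, and the 3 genes were not among them (adjusted p of at least 0.636).

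With each cell weighted alike, the pair mean of log2(CPM + 1) for Kit was 5.42 ± 2.75 with dexamethasone and 4.63 ± 2.63 in untreated pairs (SD, n = 13 each, two-sided permutation p = 0.459). For Tfrc it was 5.91 ± 2.88 with dexamethasone and 7.50 ± 2.48 in untreated pairs (permutation p = 0.147). For Cd24a it was 6.39 ± 3.59 with dexamethasone and 6.57 ± 3.26 in untreated pairs (permutation p = 0.894). The adjusted p over 6429 genes was 1.00 for each, and 0 genes were called (0%; 261 with an unadjusted p under 0.05). The difference was smaller than the spread between founders for all 3.

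The Tfrc difference kept its sign over the choices of pairs but not its size. Without the 3 untreated pairs that hold a shallow library the pair means were 5.91 ± 2.88 with dexamethasone (n = 13) and 8.16 ± 1.06 untreated (n = 10; SD), a difference of -2.26 with a permutation p of 0.0263 and an adjusted p of 1.00. Without the myeloid-like pairs as well they were 7.19 ± 1.61 with dexamethasone (n = 10) and 8.27 ± 1.15 untreated (n = 8; SD), a difference of -1.08 with an exact permutation p of 0.128. Without dexamethasone pair 12 in addition the difference was -0.94 (exact permutation p = 0.203). The summed granulocyte and monocyte markers ran from 0.258 to 26902 CPM in dexamethasone and from 1.77 to 41905 CPM in untreated libraries, and how much of the Tfrc difference goes with them was not tested beyond these subsets.

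The sign of the Kit difference was not the same in the sets of library plate columns, although no test of this passed adjustment. Dexamethasone pairs sit in columns 3, 4, 6 and 7, and the untreated ones in 1, 2, 5 and 6. Columns 1 to 4 and 5 to 7 thus each hold both treatments, a cut made here and not given by the labels. Column 6 is the only single column with both, in dexamethasone pair 9 and untreated pair 13. In any other column the treatment and the column cannot be told apart. In columns 1 to 4 the mean Kit level of a pair was 7.20 with dexamethasone and 4.30 in untreated pairs on the log2(CPM + 1) scale (n = 8 each, exact permutation p = 0.0155, adjusted p = 0.821 over all genes). In columns 5 to 7 it was 2.58 with dexamethasone and 5.18 in untreated pairs (n = 5 each, exact permutation p = 0.127). Of the 8 untreated pairs in columns 1 to 4, 2 held a shallow library, and without them the mean was 7.20 with dexamethasone and 5.21 untreated (exact permutation p = 0.0609). The difference of the effects, columns 5 to 7 minus columns 1 to 4, was -4.12 ± 1.69 by limma without the shallow pairs (SE, unadjusted p = 0.0222, adjusted p = 0.958), and limma called 0 of 6429 genes for that difference (0%). It was 0.60 ± 1.86 for Tfrc and 2.55 ± 2.89 for Cd24a (SE).

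**Figure D4:**
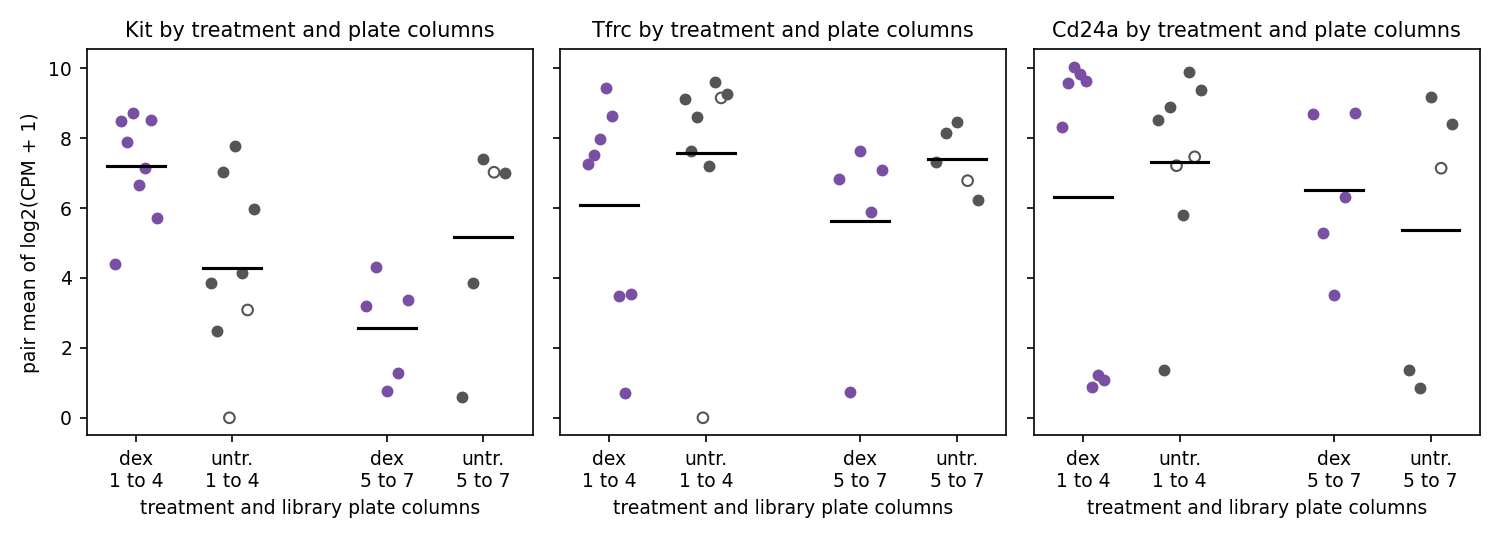
Pair mean of log2(CPM + 1) for Kit, Tfrc and Cd24a by treatment (dex, dexamethasone; untr., untreated) and by library plate columns 1 to 4 or 5 to 7; each dot is 1 founder, open dots are pairs with a shallow library and the bar is the group mean. For Kit the dexamethasone mean is 7.20 against 4.30 untreated in columns 1 to 4, and 2.58 against 5.18 in columns 5 to 7.

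The levels by lineage class are a description, since the classes come from genes of the same cells, although none of the 3 genes is in a marker list. Cd24a was near the floor in most myeloid-like cells: 8 of 10 held at most 2.15 CPM, and the 2 others were the daughters of dexamethasone pair 10, at 47.6 and 30.9 CPM, in which 7 and 16 of the 33 erythroid markers reached 10 CPM, against at most 5 in the other myeloid-like cells. Of the other cells 32 of 38 had Cd24a, with a median over the 38 of 385 CPM. The 6 that lacked it were both daughters of dexamethasone pair 8 (0.434 and 2.16 CPM), dexamethasone pair 11 cell 2 (2.22 CPM), dexamethasone pair 12 cell 1 (9.51 CPM) and both daughters of untreated pair 2 (2.53 and 0.860 CPM).

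The daughters in dexamethasone pairs 8 and 11 and untreated pair 2 held Gata1 nonetheless. Gata1, the master regulator of red cell genes, was at 200.9 and 495 CPM in dexamethasone pair 8, at 284 and 2732 CPM in dexamethasone pair 11 and at 779 and 634 CPM in untreated pair 2. The alpha-globin gene Hba-a1 was at 1.74 and 0 CPM in dexamethasone pair 8 and 0 and 9.19 CPM in dexamethasone pair 11. In untreated pair 2 it was at 14.7 and 20.6 CPM, against a median of 173 CPM where detected. Klf1 was at 280 and 123 CPM in dexamethasone pair 8, 345 and 1321 CPM in dexamethasone pair 11, and 529 and 509 CPM in untreated pair 2. Of the 33 erythroid markers, 12 and 11 reached 10 CPM in dexamethasone pair 8, and 12 and 9 in dexamethasone pair 11. In untreated pair 2 the numbers were 22 and 23, against a median of 22 in the 38 other cells. Itga2b, a gene of megakaryocytes and early progenitors, was at 604 and 91.2 CPM in dexamethasone pair 8, 0.478 and 0 CPM in dexamethasone pair 11, and 110 and 169 CPM in untreated pair 2. Of the 10 megakaryocyte markers, 3 and 2 reached 10 CPM in dexamethasone pair 8, 1 and 2 in dexamethasone pair 11, and 2 and 3 in untreated pair 2; their part in the low Cd24a was not tested. Over the 38 other cells Hba-a1 was detected in 34. Reads of Hba-a1 and its near-identical copy Hba-a2 may be split between them.

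Tfrc in myeloid-like cells was between 0.305 and 87.2 CPM in the 6 dexamethasone cells, with 1 of them above 10 CPM, and between 142 and 571 CPM in the 4 untreated cells. These cells come from 3 and 2 founders, and the share of all genes whose ranges part in this way was not counted. Over founders the pair means were 1.64 with dexamethasone (n = 3) and 7.74 untreated (n = 2) on the log2(CPM + 1) scale, with an exact permutation p of 0.1, the smallest that the 10 possible assignments allow. This contrast was looked at after the values had been seen. The effect of dexamethasone on Tfrc in myeloid-like minus other pairs was -5.02 ± 1.42 by limma (SE, unadjusted p = 0.00163, adjusted p = 0.134), in a test that called 4 of 6429 genes (0.0622%), so the classes are not shown to differ. For Kit that difference was 5.10 ± 2.39 (SE, adjusted p = 0.411 by limma) and for Cd24a it was 1.46 ± 2.62 (SE, adjusted p = 0.858 by limma). Kit reached 10 CPM in 5 of 6 myeloid-like dexamethasone cells and in 1 of 4 untreated ones.

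Of the markers used for depletion, 8 genes were looked up. Cd3e, Ly6g and Itgam reached 10 CPM in 0 of 48 libraries, Ly6a in 1 and Fcgr2b in 3. Itga2b, which encodes CD41, was at 10 CPM or more in 17 libraries, 1 myeloid-like and 16 other, with a median of 110 CPM where detected. edgeR called it for differences between founders (adjusted p = 0.0154). Ptprc, whose CD45R isoform the depletion antibody binds, was detected in 8 libraries, 7 of them myeloid-like, at a median of 77.9 CPM. Fcgr3, which encodes CD16, was also detected in 8 libraries and in 7 myeloid-like ones, at a median of 372 CPM. A gene count does not tell the isoforms of Ptprc apart.

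The pathway around each marker was read from a list. For Kit signalling, all 25 genes listed were in the tables and 15 were tested for dexamethasone. Of these 0 were called. The log2 fold change was above 0 for 12 and below 0 for 3, with a median of 0.31 against 0.06 over all genes. Among the most abundant were the GTPase gene Nras (8.02 ± 1.42 with dexamethasone and 8.41 ± 0.81 untreated), Ptpn6, which encodes the phosphatase SHP-1 that damps the receptor (5.44 ± 2.64 with dexamethasone and 4.71 ± 2.63 untreated), and the kinase gene Akt1 (5.25 ± 2.12 with dexamethasone and 4.90 ± 2.58 untreated). All are pair means of log2(CPM + 1) with SD, over 13 dexamethasone and 10 untreated pairs. Kitl, the gene of the ligand, was not counted in any of the 48 libraries. For differences between founders edgeR called 0 of 20 genes of the list, which at 3.42% of all genes called says nothing about the list.

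For iron uptake through transferrin, all 17 genes were in the tables and 14 were tested for dexamethasone, with 0 called, 6 positive, 8 negative and a median log2 fold change of -0.10. Between founders edgeR called 4 of 15, against 3.42% of all genes. They were Tfr2, the second transferrin receptor (adjusted p = 0.0161), Steap3, which reduces iron in the endosome (0.0339), and the ferritin genes Fth1 (0.000416) and Ftl1 (7.59e-06), whose products store iron. Tfr2 was detected in 26 of 38 other cells and in 0 of 10 myeloid-like cells, and Steap3 in 32 and 1. Fth1 averaged 11.60 ± 0.83 with dexamethasone and 11.65 ± 0.54 in untreated pairs on the log2(CPM + 1) scale. Ftl1 averaged 12.02 ± 0.92 with dexamethasone and 12.03 ± 0.47 untreated (SD, n = 13 dexamethasone and 10 untreated pairs). The sorting gene Snx3, which recycles the receptor to the surface, was at 7.67 ± 1.15 with dexamethasone and 7.68 ± 1.08 untreated, and the iron chaperone gene Pcbp1 at 7.20 ± 1.93 with dexamethasone and 7.78 ± 0.94 untreated. The genes of the hairpin-binding proteins, Aco1 and Ireb2, were detected in 30 and 23 of 48 libraries.

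For the synthesis of the GPI anchor that holds CD24 in the membrane, 23 of the 24 listed genes were found in the tables and 13 were tested for dexamethasone, with 0 called, 9 positive, 4 negative and a median of 0.23. Between founders 0 of 15 were called by edgeR, against 3.42% of all genes. The most abundant were the transamidase subunits Pigs (5.74 ± 2.87 with dexamethasone and 5.95 ± 2.19 untreated), Gpaa1 (5.06 ± 1.70 with dexamethasone and 4.95 ± 2.09 untreated) and Pigk (3.56 ± 2.82 with dexamethasone and 4.02 ± 2.58 untreated), and Pigq of the first step of synthesis (3.13 ± 2.73 with dexamethasone and 5.49 ± 2.76 untreated). These are pair means of log2(CPM + 1) with SD, over 13 dexamethasone and 10 untreated pairs.

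Across the 23 founders the 3 markers did not move as 1 unit. As a description, with points that share library depth within a founder, Pearson's r between pair means was 0.56 for Tfrc and Cd24a (Spearman's rho 0.63), 0.31 for Kit and Cd24a (0.34) and -0.07 for Kit and Tfrc (0.06). In the 18 pairs without a myeloid-like daughter r was 0.62 for Tfrc and Cd24a, and 0.33 after the 2 founders farthest from the median Tfrc were left out. Cd24a and Hba-a1 had an r of 0.84 over 23 founders (rho 0.71) and 0.74 over the 18 (rho 0.47), and 0.58 over the 18 after the 2 founders farthest from the median Cd24a were left out. Cd24a and Mpo had an r of -0.70 over 23 and -0.28 over the 18.

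The genes most like each marker were sought by Pearson's r over the 23 founders among 7385 named genes. Cd24a was closest to Rhag (0.92) and Rhd (0.91), which encode proteins of the Rh complex of the red cell membrane, then to the copper transporter gene Atp7b (0.90), the red cell pyruvate kinase gene Pklr (0.88) and Rfesd (0.87). Of these 5, 4 were also among the first 5 in the 18 pairs without a myeloid-like daughter. Lowest were Gmfg (-0.87), the RNA-binding protein gene Celf2 (-0.86) and the protease gene Klk8 (-0.85).

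Tfrc was closest to the ribosome assembly factor gene Ltv1 (0.80), the nucleolar protein gene Nolc1 (0.77), Ssx2ip (0.74), the mitochondrial ribosome gene Mrps17 (0.72) and the sterol regulator gene Insig1 (0.72), and lowest for the growth factor binding protein gene Igfbp4 (-0.87), Cd63-ps, a pseudogene by its name (-0.81), and the calponin gene Cnn2 (-0.77). Kit was closest to the RNA acetyltransferase gene Nat10 (0.81), the RNA polymerase I subunit gene Polr1e (0.80), the mitochondrial GTPase gene Noa1 (0.78), the amino acid transporter gene Slc7a6 (0.77) and the RNA helicase gene Dhx9 (0.77), and lowest for the tubulin gene Tubb5 (-0.62), the phosphatase gene Ppm1h (-0.59) and the malate dehydrogenase gene Mdh2 (-0.59). Of the first 5 of Tfrc and of Kit, 0 were among the first 5 in the 18 pairs. The r of the 5 Kit neighbours was nevertheless of like size there, from 0.72 for Slc7a6 to 0.79 for Nat10, while that of the 5 Tfrc neighbours ran from 0.31 for Mrps17 to 0.69 for Ssx2ip.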

How the data were processed

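The data are RNA-seq of 52 single daughter cells, 2 per founder. The authors deposited read counts per gene without normalization, in 1 table for each treatment. STAR 2.4, featureCounts and GRCm38 are named in the submitters' processing notes; library preparation, strand setting and the handling of reads shared between gene copies were not stated in the sources used here. The number of columns that matched no sample was 0.

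Pair sums were tested with edgeR 4.0.16 in R 4.3.3 (filterByExpr, TMM, glmQLFit, glmQLFTest). A standard error is the log2 fold change divided by the square root of F. Founders were tested in single cells on genes that reached 5 counts in 10 or more libraries, in the 25 pairs with 2 libraries above 0 counts. Pair means of log2(CPM + 1), with a pseudocount of 1, were compared by two-sided permutation (100000 resamples, or all assignments where a group had fewer than 10 pairs). limma 3.58.1 and DESeq2 1.42.0 were alternatives. P-values were adjusted by Benjamini-Hochberg over all genes tested, with a threshold of 0.05. The permutation within myeloid-like pairs was run for Kit, Tfrc and Cd24a alone and was not adjusted. The scripts were checked on simulated data.

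The sort markers, gene lists and settings were chosen with earlier results of these data known. Named genes are the 3 markers, the 5 most and 3 least alike by Pearson's r, the 4 most abundant and any called of each pathway list, the depleted markers, and Gata1, Klf1, Hba-a1 and Mpo; 1 gene under this rule is not reported here. Depth and counting error limit low levels, since read counts without molecular identifiers are not counts of molecules.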

Additional observations from a re-analysis of the deposited data

How the results depend on the processing

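Dexamethasone never called Kit, Tfrc or Cd24a in any setting tried. Tfrc kept its negative sign in all of them, whereas Kit and Cd24a did not keep theirs. In edgeR Kit was at -0.22 without shallow and myeloid-like pairs and at -2.17 in plate columns 5 to 7 alone, and Cd24a was at -0.18 by limma-trend on pair means. On pair means Kit was at -0.66 without shallow and myeloid-like pairs, -0.24 without dexamethasone pair 12 as well, -2.59 in columns 5 to 7 and -2.13 there without the shallow pair, while Cd24a was at 0.024 with TMM-scaled CPM, 0.029 without shallow pairs, 0.033 without shallow and myeloid-like pairs and dexamethasone pair 12, 1.12 in columns 5 to 7 and 1.56 there without the shallow pair. edgeR called 2180 genes for dexamethasone without a filter on low counts and DESeq2 called 2. Leaving out 1 pair at a time, the edgeR log2 fold changes ran from 0.15 to 0.81 for Kit, -1.09 to -0.64 for Tfrc and 0.20 to 0.66 for Cd24a, with 0 genes called.

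Between founders Tfrc passed by limma-trend (0.00870), by edgeR with RLE scaling (0.0485) and by limma-trend without shallow pairs (0.00942). It did not pass by edgeR without shallow pairs (0.0724), nor without shallow and myeloid-like pairs by limma-trend (0.247) or by edgeR (0.439). The number of genes called was 493 by limma-trend, 650 by limma-trend without shallow pairs and 82 within a plate column. Leaving out 1 pair at a time in limma-trend, the adjusted p ran from 0.00249 to 0.0445 for Tfrc, from 7.86e-09 to 1.37e-06 for Cd24a and from 0.114 to 0.283 for Kit, with 389 to 640 genes called. With Spearman in place of Pearson, 0 of the 5 genes most like Tfrc remained. The causes were not tested.

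A pair number that occurs in both treatments stands for 2 different founders. Between treatments the correlation of same-numbered deviations averaged 0.034 and was over 0.1 in 2 of 13 numbers. Only 1 untreated pair was closest to its own number. Low correlations of single founders cannot tell whether same-numbered pairs shared an embryo or litter. With the pair number as replicate block the edgeR values were 0.79 for Kit, -1.14 for Tfrc and 0.77 for Cd24a, with 0 genes called. Chosen after the data were seen were the settings without dexamethasone pair 12, plate column sets without shallow pairs, limma-trend without shallow pairs, the test by lineage class, the thinning and the fits that leave out 1 pair.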
